A study of Mus musculus with 9 samples.

Results

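The claudins described here are 10 genes of the tight junction family that kidney tubules are known for, Cldn1, Cldn2, Cldn3, Cldn4, Cldn7, Cldn8, Cldn10, Cldn14, Cldn16 and Cldn19. They were chosen by name and not by any measured value, as every probe that carries one of these gene names on the postnatal arrays. That gave 12 probes for 10 genes, of 41174 probes for 28786 gene names in all, and all 10 genes were among the 20915 that passed the filter on dim probes. The mutant pool held RNA of 2 pups homozygous for the Glis3zf mutation of the zinc finger transcription factor Glis3, and the WT pool held RNA of 2 wild-type pups. Pups of both genotypes were of the C57BL/6 strain and were sampled on postnatal day 3 (PND3). From each pool 500 ng of RNA were labelled, and both pools shared each of 2 Agilent 2-colour arrays, the second with Cy3 and Cy5 swapped. With 1 pool per genotype, read on a technical pair of arrays, the spread between animals is unknown and no p-value is given.

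Claudins are small membrane proteins that join neighbouring epithelial cells at the tight junction and decide which ions and how much water pass between the cells. Some form pores and others form barriers, and each segment of the kidney tubule has its own set, so that the leaky proximal tubule and the tight collecting duct differ in the claudins they carry. In bulk RNA, fewer cells of a segment and less RNA per cell cannot be told apart.

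Both pools are labelled as pancreas, but the defining markers of pancreas were dim or below background and those of kidney were bright. All 53 genes of 6 nephron lists (proximal tubule, thick limb, distal convoluted tubule, principal cell, intercalated cell and podocyte) passed the scanner's background test in all 4 channels, against 3 of 8 islet genes and 10 of 12 acinar genes. Proximal tubule genes had a median scanner signal of 11451 for mutant RNA and 12108 for WT RNA. The measured islet genes had 67.6 for mutant RNA and 68.0 for WT RNA, the measured acinar genes 67.9 for mutant RNA and 64.4 for WT RNA, and all measured genes had 606 for mutant RNA and 609 for WT RNA. Ins1, Gcg, Ppy and Mafa failed the background filter. The ratios below are therefore given for the pools as labelled, not for pancreas. The Glis3 probe passed the background test with WT RNA on each array and with mutant RNA on neither, but where that probe lies relative to the mutation is unknown here, so it does not check the genotype.

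The probes are 60-base DNA oligos, printed here 5′ to 3′ as the scanner files give them and credited to those files. They are shown for Cldn10 and Cldn14, the members that were lower in the mutant pool on both arrays, and for Cldn16 and Cldn19, whose proteins pair in the thick ascending limb, in the brighter probe of each gene. No stretch is marked with capitals.
Cldn10: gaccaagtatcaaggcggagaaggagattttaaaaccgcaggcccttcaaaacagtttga
Cldn14: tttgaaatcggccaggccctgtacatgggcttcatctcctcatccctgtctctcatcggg
Cldn16: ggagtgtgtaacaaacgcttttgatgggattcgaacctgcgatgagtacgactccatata
Cldn19: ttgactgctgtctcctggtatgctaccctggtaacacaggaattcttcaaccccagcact
Claudins are related in sequence. The longest run of letters that any of the 12 probes shared with a probe of another member was 8 bases. No probe was compared with the transcripts of other claudins, so whether a probe also reads a related claudin was not examined. The Cldn10 probe carries the accession of transcript variant 2, and whether it also reads the other variants of the gene was not examined.

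None of the 10 claudins differed 2-fold between the pools. A gene was counted when each array gave a difference of at least 2-fold, with 1 sign, which held for 40 of 20915 measured genes (0.191%). By this count, 0.0335% of all measured genes were higher and 0.158% lower in the mutant pool. At 1.5-fold the count was again 0 of 10 claudins, beside 184 genes in all (0.88%), with 0.253% higher and 0.626% lower. Counts of 0 in 10 genes are near shares this small and do not set claudins apart from other genes. Mean log2 ratios ran from -0.18 for Cldn14 to 0.31 for Cldn4, and their median was 0.05, against -0.01 for all measured genes. Cldn8 and Cldn19 were higher in the mutant pool on both arrays after loess, though not after median centring. Cldn10 and Cldn14 were lower on both arrays under either scaling, and the other 6 had opposite signs on the 2 arrays after loess. Over all genes 30.9% were higher on both arrays, 37.9% were lower on both and 31.3% had opposite signs. The channel levels of the pools did not overlap for those 4 of 10 claudins, nor for 60.4% of all measured genes. Levels without overlap require 1 sign on both arrays, so this count largely restates the signs and is not further support. Every claudin passed the background test in all 4 channels, so none of these ratios is a bound.

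**Figure D1:**
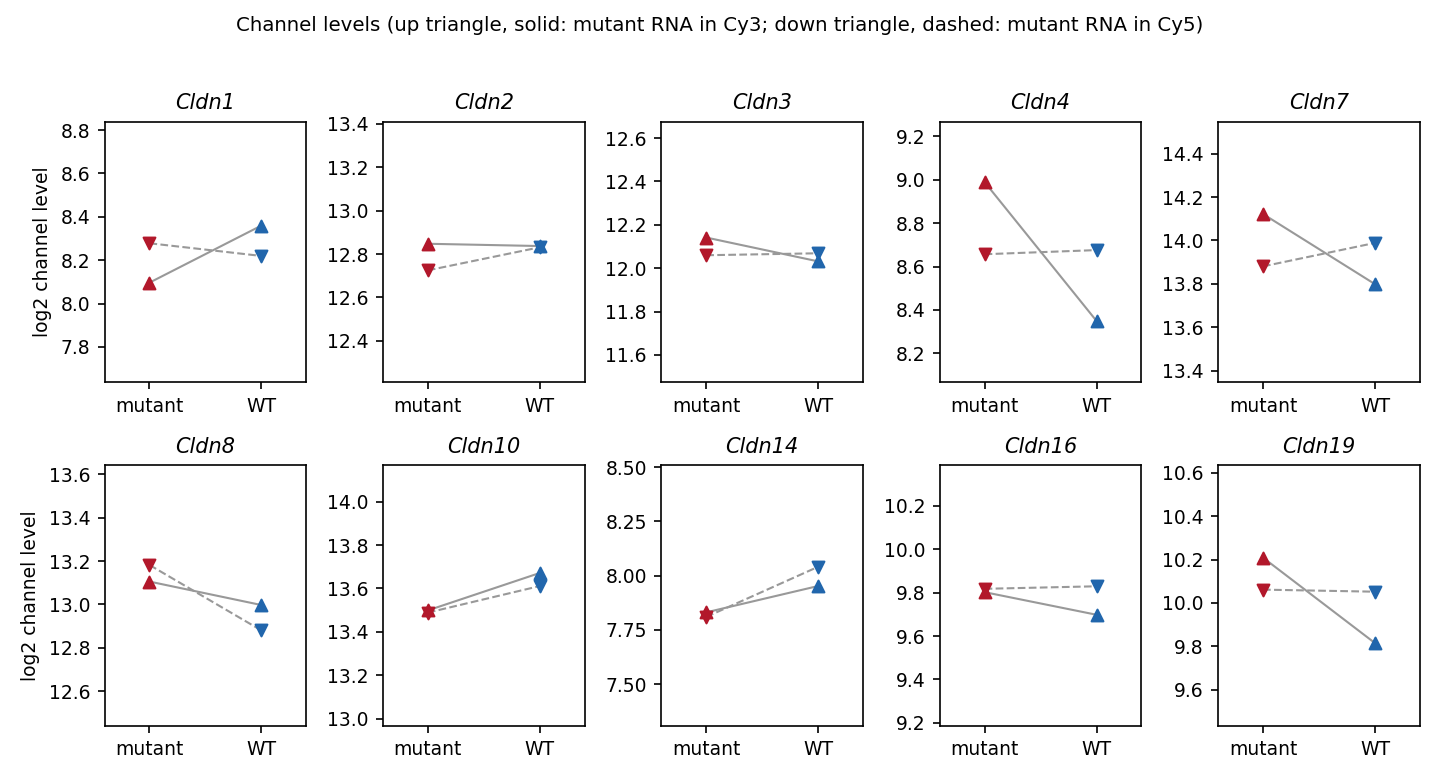
Normalized log2 channel level of the probe that stands for each of the 10 claudins, with the mutant pool on the left and the WT pool on the right of each panel; lines join the pools on 1 array, and every panel spans the same range of log2 units. Cldn8, Cldn10, Cldn14 and Cldn19 have mutant and WT levels that do not overlap, and the lines of Cldn4 and Cldn7 diverge most between the arrays.

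Among claudins known from the glomerular capsule and the proximal tubule, levels of the pools overlapped for Cldn1 and Cldn2. Signals are the scanner software's processed signals, with the array that carried the mutant pool in Cy3 first and the swapped array second. Cldn1, a barrier-forming claudin of skin and of the parietal cells of Bowman's capsule, gave 261 and 259 in the mutant pool, against 314 and 248 in the WT pool. Its log2 ratios after normexp background correction and loess were -0.26 and 0.06, a mean of -0.10. The dimmer probe of Cldn1 stood at -0.01 and -0.03, so both Cldn1 probes lay near 0 on the second array, and the brighter one was further below it on the first. Cldn2, which forms the cation and water pore of the proximal tubule, gave 7208 and 6132 in the mutant pool, against 7305 and 6467 in the WT pool. Its log2 ratios were 0.01 and -0.11, a mean of -0.05, and the sign differed between arrays.

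Cldn10 and Cldn14 were the members with lower ratios on both arrays. Cldn10 has variants that form an anion pore in the proximal tubule and a cation pore in the thick ascending limb. Its probe gave 13721 and 11865 in the mutant pool, against 14921 and 13371 in the WT pool. The log2 ratios were -0.17 and -0.12, a mean of -0.15, which is a change of -9.72%. The normalized log2 levels did not overlap, at 13.50 and 13.49 in the mutant pool, against 13.67 and 13.61 in the WT pool. Cldn14, which restrains calcium passage in the thick ascending limb and is raised by the calcium-sensing receptor, gave 181 and 167 in the mutant pool, against 205 and 190 in the WT pool. Its log2 ratios were -0.12 and -0.23, a mean of -0.18, and its log2 levels did not overlap, at 7.83 and 7.81 in the mutant pool, against 7.95 and 8.04 in the WT pool. The lower channel levels of these 2 claudins were shared by 33.2% of all measured genes, whose levels were also lower without overlap.

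Cldn16 and Cldn19 encode partners that together carry magnesium and calcium between cells of the thick ascending limb, and loss of either causes a kidney disease with magnesium wasting in humans. Their ratios were not alike in size. Cldn16 gave 1081 and 968 in the mutant pool, against 997 and 988 in the WT pool, with log2 ratios of 0.10 and -0.01 and a mean of 0.05. Cldn19 gave 1209 and 982 in the mutant pool, against 946 and 933 in the WT pool, with log2 ratios of 0.39 and 0.01 and a mean of 0.20. Its dimmer probe gave 720 and 633 in the mutant pool, against 571 and 512 in the WT pool. That probe stood at 0.32 and 0.26, a mean of 0.29, which is 22.3% more in the mutant pool. The 2 Cldn19 probes therefore had the same direction on every array but differed on the second, where the brighter one was near 0. The thick limb list, with 9 of 9 genes measured, had a median of 0.03, with Slc12a1, the salt transporter of that segment, at -0.20 and Casr, the calcium-sensing receptor, at 0.16.

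**Figure D2:**
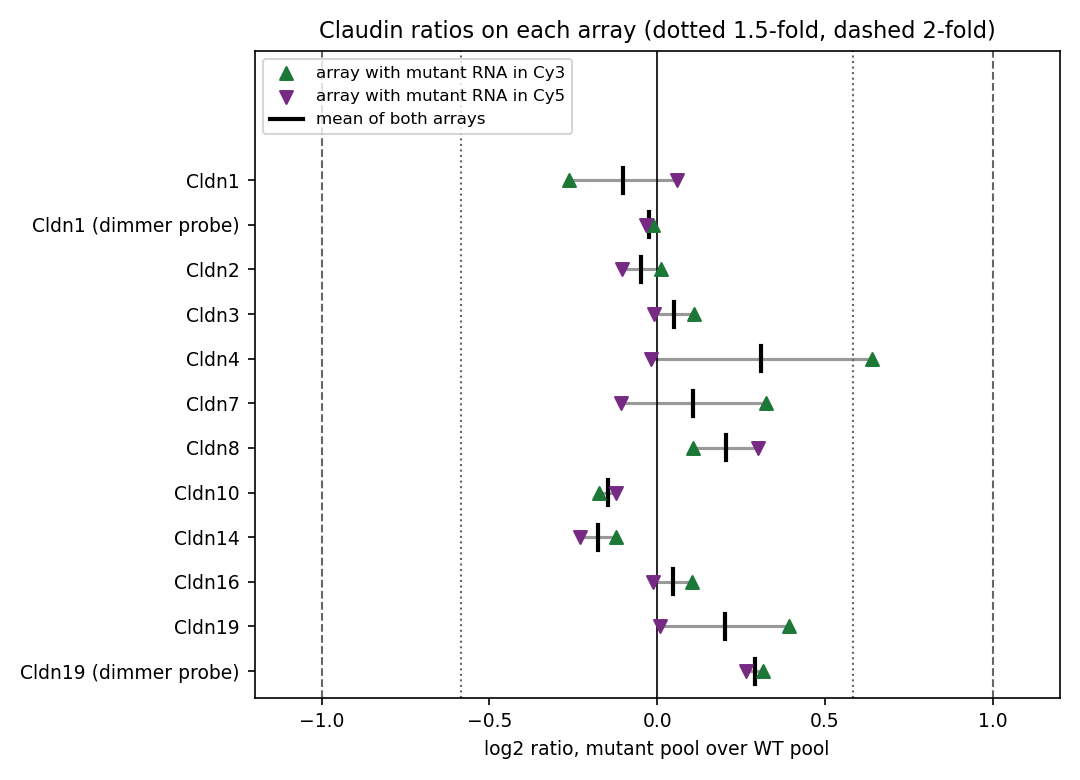
Log2 ratio of the mutant pool over the WT pool for each of the 12 claudin probes, with 1 triangle per array and a black bar at the mean of both arrays; the grey line joins the arrays. No probe passes the dotted line of 1.5-fold on both arrays, and Cldn4 has the widest gap between arrays, 0.64 and -0.02.

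The 4 claudins known from the distal nephron and collecting duct had mean log2 ratios above 0 after loess, but Cldn4 alone did after median centring, and Cldn8 was the only one of them above 0 on both arrays after loess. Cldn3, a sealing claudin, gave 4429 and 3831 in the mutant pool, against 4178 and 3785 in the WT pool. Its log2 ratios were 0.11 and -0.01, a mean of 0.05. Cldn7, found along the lateral membrane of these cells, gave 20169 and 16152 in the mutant pool, against 16954 and 16513 in the WT pool. Its log2 ratios were 0.32 and -0.11, a mean of 0.11, so the arrays disagreed in sign by more than the mean itself.

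Cldn8, which with Cldn4 shapes the chloride permeability of the collecting duct, gave 9730 and 9329 in the mutant pool, against 8920 and 7650 in the WT pool. The log2 ratios were 0.11 and 0.30, a mean of 0.21, which is 15.3% more in the mutant pool. Its log2 levels did not overlap, at 13.11 and 13.18 in the mutant pool, against 13.00 and 12.88 in the WT pool. Levels higher without overlap were found for 27.3% of all measured genes.

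Cldn4 had the largest mean ratio of the 10 claudins under this processing, but only 1 array gave a ratio above 0. Its probe gave 466 and 317 in the mutant pool, against 264 and 319 in the WT pool. The log2 ratio was 0.64 on the first array, past 1.5-fold, and -0.02 on the swapped one. Both pools read higher in Cy3 than in Cy5, with log2 levels of 8.99 and 8.66 for mutant RNA and 8.68 and 8.35 for WT RNA. Each pool was thus 0.33 apart between the arrays, where the median gene had 0.07 in either pool. These 2 gaps are not separate evidence, since the levels are built from the same 2 ratios. A dye effect of the probe, which the mean over swapped dyes would offset, was not tested. The difference between arrays, 0.66, exceeded the mean ratio of 0.31, and the 2 readings of this gene do not agree. Cldn3, its neighbouring coding gene on mouse chromosome 5 in RefSeq (GRCm38.p6), had 0.11 and -0.01, so both neighbours were above 0 on the first array and just below it on the second. Cldn1 and Cldn16, neighbours on chromosome 16, had opposite signs on each array.

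The claudin ratios were also set among those of all measured genes. The 5th and 95th percentiles of mean log2 ratios were -0.31 and 0.29, and 9 of the 10 claudins fell inside it, Cldn4 being the exception. The median absolute ratio was 0.13 for the 10 claudins and 0.10 for all measured genes. The median difference between arrays was 0.16 for the claudins and 0.11 for all measured genes. Of all measured genes, 91.2% had a smaller absolute ratio than Cldn4, 78.1% a smaller one than Cldn8, 77.6% than Cldn19, 72.6% than Cldn14 and 65.7% than Cldn10. The share was 53.3% for Cldn7, 51.5% for Cldn1, 28.4% for Cldn3, 27.0% for Cldn2 and 26.2% for Cldn16.

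**Figure D3:**
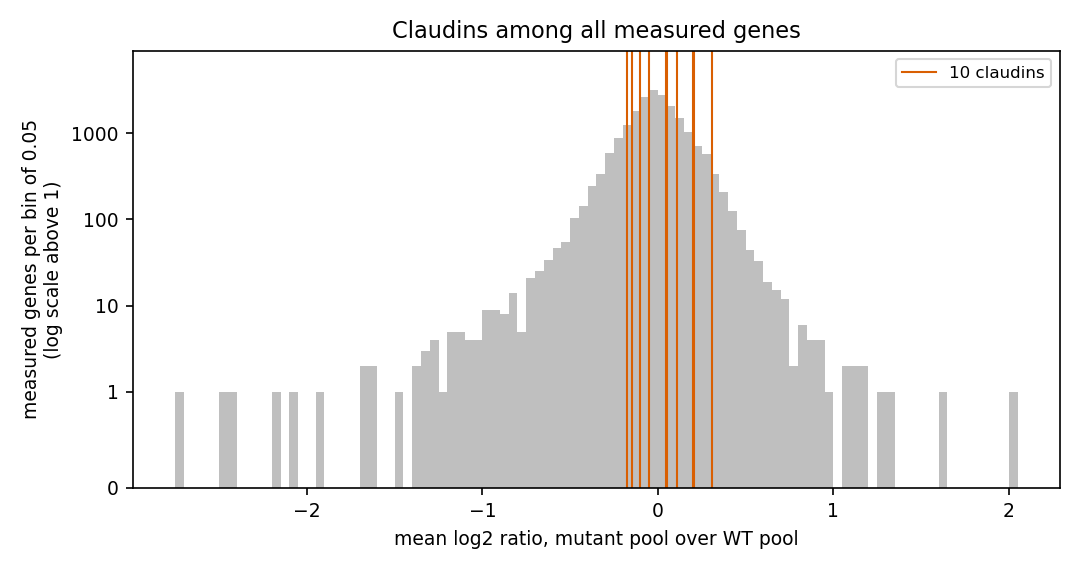
Number of measured genes per bin of mean log2 ratio (mutant pool over WT pool), on a vertical axis that is logarithmic above 1, with an orange line at each of the 10 claudins. All lines lie between -0.18 and 0.31, and the rightmost, Cldn4, is the one outside the 5th to 95th percentiles of all genes.

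Of the other claudins and close relatives, 14 were on the arrays and 12 were measured. None differed 1.5-fold on both arrays, as 0.88% of all measured genes did. On both arrays 5 were lower and 3 higher, and 4 had opposite signs, with a median of -0.01. Of all measured genes, 37.9% were lower, 30.9% higher and 31.3% of opposite signs. Cldn5, the claudin of endothelium, gave 15091 and 13545 in the mutant pool, against 17162 and 16839 in the WT pool. Its log2 ratios were -0.18 and -0.31, a mean of -0.24. Cldn6, a claudin of embryonic epithelia, stood at -0.20 and -0.25, a mean of -0.23, and Cldn11, known from myelin and the testis barrier, at -0.10 and -0.17, a mean of -0.13. Cldn23 was dim, though above background in all 4 channels, with 104 and 89 in the mutant pool, against 77 and 64 in the WT pool. It stood at 0.18 and 0.26, a mean of 0.22, and its scanner ratio was 0.45. Means were also above 0 for Cldn12 (0.12), Cldnd1 (0.11), Cldn15 (0.07) and Cldn9 (0.02). Of these, Cldn12 and Cldn15 had opposite signs on the arrays, and a second Cldnd1 probe gave -0.05. Cldn17 and Cldn18, the second of which is known from stomach and lung, failed the background filter. Markers of endothelium were measured for 8 of 8 genes, with a median of -0.07. Their summed signal was 34959 to 37287 for mutant RNA and 36520 to 41454 for WT RNA, and its part in the Cldn5 ratio was not tested.

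The genes of proteins that claudins join at the junction had ratios on both sides of 0. Of 30 strand and scaffold genes, all measured, 0 were 1.5-fold apart on both arrays, 11 were lower and 9 higher on both, and the median was -0.01. The shares of all measured genes were 0.88%, 37.9% and 30.9%. These counts are near those shares and do not set the list apart. Jam3, a junctional adhesion molecule, stood at -0.51, Ocln, encoding the strand protein occludin, at -0.45, and Tjp1, encoding the scaffold ZO-1 that binds claudin tails, at -0.42. Patj, a scaffold of apical polarity, stood at 0.43. These 4 values belong to the brightest probe of each gene, and other probes disagreed in size. A second probe gave -0.10 for Jam3, -0.07 for Ocln and 0.01 for Tjp1, and 2 further Patj probes gave -0.03 and 0.15.

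Of the 15 genes that regulate claudins and are reported here, all were measured. After loess 4 were lower and 8 higher on both arrays, with a median of 0.04, which was below 0 after median centring. Of all measured genes, 37.9% were lower and 30.9% higher on both arrays after loess. Prss8, a protease of tight epithelia, stood at 0.32, and Ovol1, an epithelial transcription factor, at 0.20, though a second Ovol1 probe gave -0.03. Vdr, the vitamin D receptor, stood at -0.25. Cul3, a ubiquitin ligase scaffold that works with Klhl3, stood at -0.20 and its second probe also at -0.20. Adherens junction and polarity genes, 14 of 14 measured, had a median of -0.02, with Cdh2, encoding N-cadherin, at -0.44.

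Genes of the segments that carry these claudins were set beside them. After loess 30.9% of all measured genes were higher and 37.9% lower on both arrays, and 0.88% were 1.5-fold apart on both. Principal cell genes of the collecting duct had a median log2 ratio of 0.29 after loess and 0.09 after median centring, with 7 of 10 higher on both arrays after loess and none 1.5-fold apart on both. Their summed signal was 76510 to 86141 for mutant RNA and 67671 to 72974 for WT RNA. Avpr2, the vasopressin receptor, stood at 0.60, and Aqp2, the water channel it controls, at 0.49. Hsd11b2, which protects the aldosterone receptor from glucocorticoid hormones, stood at -0.70. Beside them the collecting duct claudins stood at 0.05 for Cldn3, 0.11 for Cldn7, 0.21 for Cldn8 and 0.31 for Cldn4. Intercalated cell genes had a median of -0.18 after loess and -0.32 after median centring, with 6 of 10 lower and 3 higher on both arrays after loess. The anion exchanger Slc26a4 stood at -1.26, and Rhcg, an ammonia transporter, at 0.17. Proximal tubule genes had a median of 0.01, beside -0.05 for Cldn2 and -0.15 for Cldn10. Distal convoluted tubule genes had a median of 0.17 after loess and -0.04 after median centring, and podocyte genes had 0.02 after loess and -0.19 after median centring. The part of segment content in the claudin ratios was not tested.

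**Figure D4:**
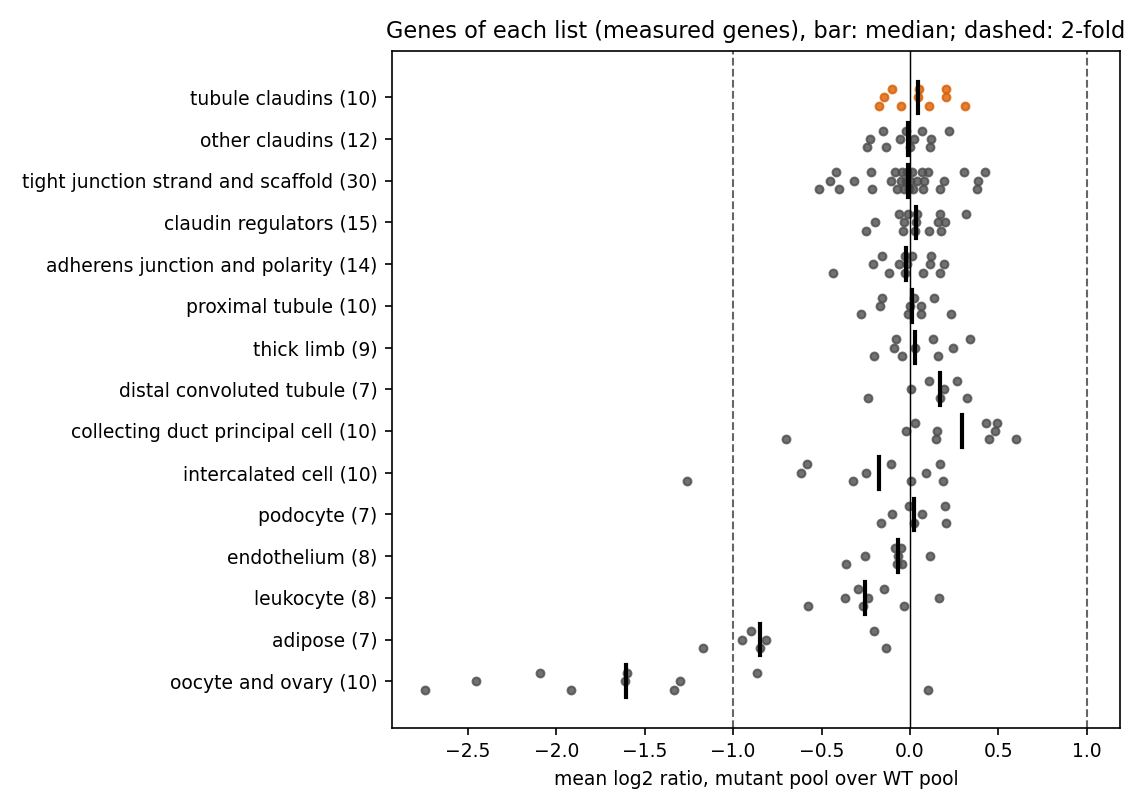
Mean log2 ratio (mutant pool over WT pool) of each measured gene in 15 gene lists, with a black bar at the list's median and the number of measured genes in brackets. The tubule claudins, in orange, span -0.18 to 0.31, while most of the adipose and oocyte genes lie far to the left.

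Markers of other tissues and cell types also differed between the pools. After loess 37.9% of all measured genes were lower on both arrays. Adipose genes had a median log2 ratio of -0.85, with 7 of 7 measured genes lower on both arrays. Their summed signal was 51815 to 55298 for mutant RNA and 61344 to 67762 for WT RNA. Most of that sum came from 1 bright gene at -0.20, with 49791 for mutant RNA and 56998 for WT RNA. Oocyte and ovary genes had a median of -1.61, which was -2.08 with a normexp offset of 16 and -3.17 with the scanner's processed ratio, with 9 of 10 lower on both arrays and a summed signal of 482 to 560 for mutant RNA and 3126 to 3453 for WT RNA. Of the 10, 6 passed the background test in all 4 channels. Leukocyte genes had a median of -0.25, with 6 of 8 lower on both arrays. Leptin (Lep) and Bmp15 of these lists failed the background filter. The part of these cells in the claudin ratios was not tested.

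The sign of several claudin ratios depended on how the arrays were scaled. With median centring in place of loess the median of the 10 claudins was -0.16, when that of all measured genes was -0.11. Of the 10 claudins, 5 were then lower on both arrays and 0 higher, and 54.4% of all measured genes were lower on both. Cldn3 then stood at -0.17, Cldn7 at -0.15, Cldn8 at -0.03 and Cldn16 at -0.11, all of which were above 0 after loess. Cldn4 (0.19) and Cldn19 (0.04) stayed above 0, and Cldn1 (-0.20), Cldn2 (-0.28), Cldn10 (-0.40) and Cldn14 (-0.25) stayed below it. Brighter genes were shifted further by this scaling: with genes sorted by intensity into 10 equal bins, the bin of Cldn7 and Cldn10 had a median of -0.27. Relative to the bin of each, Cldn8, Cldn3, Cldn7, Cldn16, Cldn4 and Cldn19 stood above the median and Cldn1, Cldn2, Cldn10 and Cldn14 below it. That step takes out the shift with intensity, as loess does, so it is not a separate check of the signs. The medians of strand and scaffold genes (-0.20), of claudin regulators (-0.17), of thick limb genes (-0.12) and of proximal tubule genes (-0.25) were then below 0 as well, as were those of adherens junction genes (-0.24), endothelium (-0.27) and leukocytes (-0.43), and that of principal cell genes was 0.09.

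**Figure D5:**
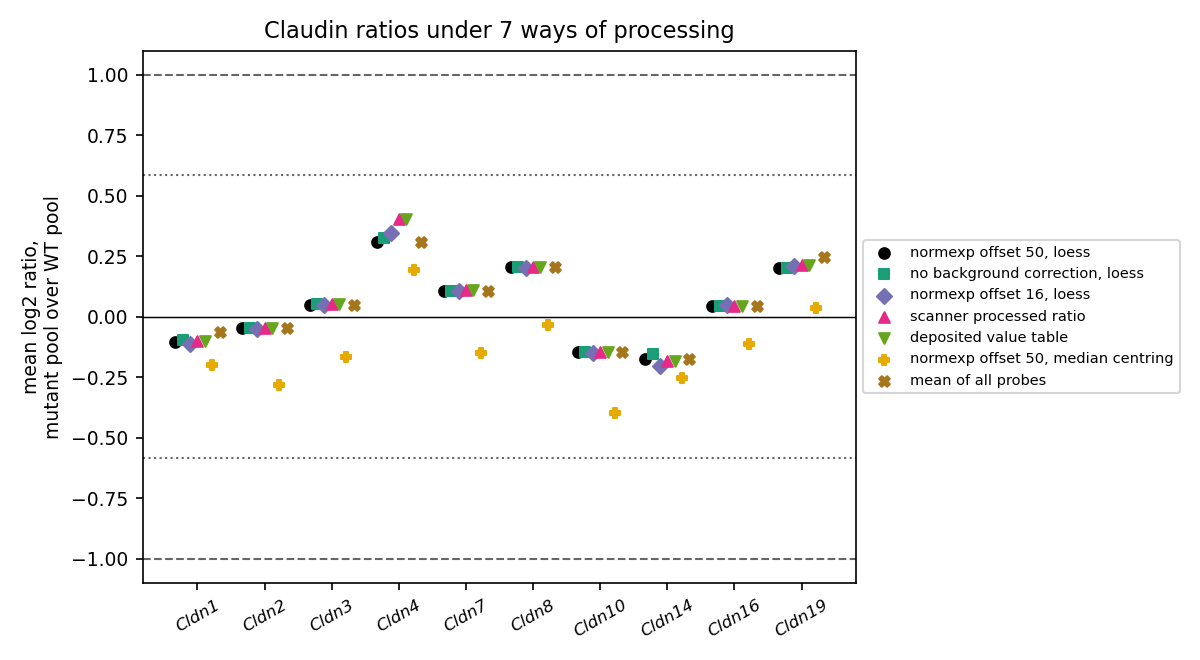
Mean log2 ratio (mutant pool over WT pool) of each of the 10 claudins under 7 ways of processing, with 1 marker per way; dotted lines mark 1.5-fold and dashed lines 2-fold. Median centring (yellow) lies below the other ways for every claudin, and no marker passes 1.5-fold.

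The promoters of these genes were searched for TGGGGGGT, the core of the site that GLIS proteins bind, on both strands, in windows of 300 bases from 250 before to 50 after each start in RefSeq (GRCm38.p6). It was in 0 of 14 windows of 9 of these genes and in 501 of 32851 windows of all genes (1.53%), so its absence says only that these letters are not in those windows.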

How the data were processed

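RNA labelled as pancreas from 1 pool of 2 mutant pups and 1 pool of 2 WT pups at PND3 was read on 2 Agilent arrays with exchanged dyes. Per the labels, 500 ng of each pool were amplified and labelled. Per the file headers, the authors' scanner files, made with Feature Extraction 9.1.3.1 (protocol GE2-v5_91_0806; version 8.1 stands in the submitters' processing notes), hold spot and background intensities, processed signals that are background-subtracted and dye-normalized intensities, a log10 ratio of Cy5 over Cy3, and flags. The deposited value table holds log2 ratios, mutant over WT as the authors gave them, which was found by setting it against the scanner ratio of each array (r = 0.9996 and 0.9997, median 0 in each column).

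With R 4.3.3 and limma 3.58.1, background was corrected by normexp (offset 50), which draws ratios of dim probes toward 0, and loess was run on each array's ratios with controls at weight 0. The sign was turned where mutant RNA was in Cy3. Levels are log2 channel values after Aquantile scaling. Of 43379 spots that were not controls, 18 and 26 marked as outliers were left out and none was saturated. The share of spots flagged well above background was 72.8% to 76.6% over the channels. The brightest probe stood for a gene, and a probe counted as measured if 1 genotype or both had that flag on each array. Of 41174 probes, 22951 took a RefSeq symbol (GRCm38.p6) through their accession. In lists, an older name was dropped where its current symbol was on the arrays. One gene of the regulator list is not reported here and was left out of that list's counts and median. The code was tested on simulated data.

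The 10 claudins, the other lists and the alternatives were chosen with earlier results of these data known. Named genes were the 10 claudins, other claudins, Glis3, and of each list up to 4 with the largest ratios of 1 sign on both arrays and, for nephron segments, its 2 brightest. Genes with patterns like a claudin's were not sought, since 1 pool per genotype gives 1 ratio per gene. The 7 arrays of embryonic day 15.5 (4 mutant, 3 WT) were not used here, because their probe sets were not paired with gene names.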

Additional observations from a re-analysis of the deposited data

How the results depend on the processing

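Across 10 alternatives the count of claudins 2-fold apart stayed 0 of 10, while the count of all genes 2-fold apart, 40, ran from 34 to 175, being 70 with a normexp offset of 16. All genes 1.5-fold apart numbered 184, but 565 with the scanner's processed ratio and the value table, 277 with median centring, and 287 to 370 on each array alone. At 1.5-fold the count of claudins was also 0, except that each array taken alone gave 0 and 1 (Cldn4, with array 1 alone). The count of claudins lower on both arrays was 2, with 3 from the scanner's processed ratio and the deposited value table, 5 with median centring (54.4% of all genes), and 3 to 7 on each array alone (51.9% to 55.1% of all genes). The median ratio of 0.05 was -0.16 with median centring, where all genes moved to -0.11, and -0.02 to 0.11 on each array alone. With the scanner's processed ratio Cldn4 stood at 0.41 and all genes 2-fold apart numbered 175. The cause was not tested. Cldn10, Cldn14 and Cldn19 kept their sign under all 10 alternatives. Cldn1, Cldn2, Cldn4 and Cldn8 changed it under 1 alternative each, and Cldn3, Cldn7 and Cldn16 under 2. No paired analysis was possible because the pools share 2 arrays of 1 RNA extract each and no result comes from a test. The comparison at embryonic day 15.5 and its alternatives could not be run without gene names. Signals near background limit what the arrays show for Cldn13, Cldn17, Cldn18 and Cldn22.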
